A study of Mus musculus with 6 samples.

Results

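Ion channels are membrane proteins that let sodium, potassium, calcium or chloride cross a cell's membranes, and many work with auxiliary subunits that set where the channel sits and when it opens. In stratified epithelia such as the lining of the tongue, channels carry sodium into the cells, set the membrane potential and report heat, stretch and ATP, and calcium entry goes with keratinocyte differentiation. The genes described here have names that begin with Kcn (potassium channels), Scn (sodium channels), Cacn (calcium channels), Gria, Grik or Grin (glutamate receptors), Clcn (chloride channels and exchangers), Trpv, Trpm or Trpc (transient receptor potential channels) or P2rx (ATP-gated channels). They also had a normalised read count of 10 or more in at least 3 of 6 libraries, and Grina was left out. Of 199 genes with such names, 169 were above 0 in at least 1 library and 54 passed the level filter, out of 10987 genes that passed it in all. These were 18 Kcn, 5 Scn, 11 Cacn, 1 Gria, 1 Grik, 5 Clcn, 3 Trpv, 5 Trpm, 3 Trpc and 2 P2rx genes, and none of 8 Grin genes. The name rule also takes in genes that form no pore, among them the splicing factor Scnm1 and Trpc4ap, a protein that binds TRPC4.

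Tongue epithelium was profiled by 3'-end mRNA sequencing in 6 mice, 1 library each. In 3 mice (WT) the Ire1α gene was floxed (IRE1F/F) with no Cre. In 3 littermates (KO) the same floxed alleles were combined with K14CreERT2, a Cre that tamoxifen switches on in cells using the keratin 14 promoter, mainly basal keratinocytes. Cells of the tissue that neither use this promoter nor descend from cells that do are not targeted. All 6 mice received tamoxifen on 4 days and were harvested on day 5. Per the labels, all 6 samples had the same digestion time and temperature. The labels used here give neither age nor strain. Ire1α detects misfolded protein in the endoplasmic reticulum and splices the mRNA of the transcription factor XBP1. Because no WT mouse carried Cre, effects of active Cre and of Ire1α loss cannot be told apart.

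The libraries held 4606309 to 6286153 reads. Ern1, which encodes Ire1α, gave 102, 105 and 77.1 in the WT libraries and 78.0, 117 and 123 in the KO libraries, but the 3' tags need not come from the deleted part, so these values are no check of the genotype. All 12 keratinocyte markers were at 10 or more in every library, with sums of 543392 to 720777 in WT and 718914 to 1018194 in KO. Only 1 of them, Itgb4, was called, as higher. Without a call, Krt5, Krt14, Krt6a, Krt6b, Itga6 and Dsg3 also lay above every WT value in every KO library. Krt15 (4815 to 6177 in WT and 1183 to 3803 in KO) and Trp63 (599 to 791 and 394 to 531) lay below. Krt4, Krt13 and Col17a1 overlapped. Of all genes tested, 9.84% lay above in this way and 9.25% below. Summed skeletal muscle markers were 3098 in KO replicate 1 and 164 to 641 in the other libraries. Summed fibroblast markers were 1432 to 1969 in WT and 257 to 1170 in KO. Dcn, most of that sum in every library but KO replicate 1, fell, while Col1a1, Col1a2 and Col3a1 were at 190, 235 and 102 in KO replicate 1 and at most 21.7 in the other libraries. Summed smooth muscle markers were 27.3 to 44.5 in WT and 57.2 to 189 in KO, and summed endothelial markers 23.5 to 50.9 and 58.1 to 76.9. Summed taste cell markers were 120 to 158 and 123 to 140, mostly Pou2f3, with Entpd2, Snap25 and Calhm3 at 0 in all 6 libraries. Pou2f3 was 92.4 to 124 in WT and 72.4 to 79.1 in KO, while Tas1r1 was 3.49 to 4.71 in WT and 9.75 to 22.9 in KO. Of the taste cell markers 2 were tested and 0 passed. In bulk tissue, fewer cells of a type and less RNA per cell cannot be told apart.

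Promoter windows from RefSeq (GRCm38.p6, 300 bases around a start site) were found for 44 of the 54 genes, 67 windows in all. Gria3, Kcnv1, Trpm4 and Scnn1a were among the genes without a window, so their promoters were not searched. The 67 windows were searched on both strands for TGACGTG, a core sequence of the unfolded protein response element that XBP1 can bind. Of the 67 windows 2 held it (2.99%), against 2.01% of all 32851 windows. Both windows that held it are shown, 1 of Trpc1 and 1 of Clcn3. Capitals mark the match, which in Clcn3 lies on the opposite strand. It begins 13 bases after the start site in Trpc1 (chr9:95750299-95750598, minus strand) and 3 bases before it in Clcn3 (chr8:60983262-60983561, minus strand).
Trpc1: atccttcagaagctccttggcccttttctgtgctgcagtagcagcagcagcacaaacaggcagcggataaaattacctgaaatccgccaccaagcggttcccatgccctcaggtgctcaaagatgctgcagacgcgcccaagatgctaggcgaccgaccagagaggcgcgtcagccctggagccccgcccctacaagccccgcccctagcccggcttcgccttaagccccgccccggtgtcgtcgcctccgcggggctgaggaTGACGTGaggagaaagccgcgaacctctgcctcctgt
Clcn3: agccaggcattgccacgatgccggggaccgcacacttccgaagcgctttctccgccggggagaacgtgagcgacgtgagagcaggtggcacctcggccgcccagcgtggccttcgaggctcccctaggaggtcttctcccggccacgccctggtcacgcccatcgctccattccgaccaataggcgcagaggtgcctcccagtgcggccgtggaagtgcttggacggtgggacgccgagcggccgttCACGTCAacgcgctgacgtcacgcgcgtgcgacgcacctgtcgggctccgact
The endoplasmic reticulum stress element was in 0 of the 67 windows and in 0.119% of all windows. Its end, CCACG, searched alone, was in 29 windows (43.3%, against 32.8% of all), the p53 half-site in 5 (7.46%, against 8.36%) and TATAAA in 4 (5.97%, against 13.6%). A match is a description of these letters and not a binding site.

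In KO epithelium 2 of the 54 genes rose, among them the glutamate receptor gene Gria3, and 0 fell (limma adjusted p under 0.05 over all 10987 genes). Of all genes tested, 1.8% passed, 1.22% higher and 0.583% lower. Without a level filter on the genes fitted these shares were 1.1%, 0.693% and 0.409%. The level filter used these same 6 libraries, and Gria3 passed it through the KO libraries alone, so the count is a description. At an unadjusted p under 0.05 there were 14 of the 54, 8 higher and 6 lower, against 13.5% of all genes. The groups did not overlap in 13 of the 54 genes, 7 higher and 6 lower in KO, against 19.1% of all genes (9.84% higher and 9.25% lower). The median log2 fold change was 0.02 for the 54 genes and -0.01 for all genes. The median size of the change, whatever its sign, was 0.36 against 0.24. A mean level under 50 was found in 38 of the 54 genes and in 4121 of all 10987. At such levels the median size was 0.40 for the 38 genes and 0.33 for all genes. With DESeq2 on the recovered reads 4 rose (Gria3, Kcnc4 and Trpc1 among them) and 1 fell (Kcnv1), where 1.97% and 1.38% of all genes did, 3.35% in all. With edgeR 2 rose and 0 fell, as with limma, where 1.14% and 0.592% of all genes did, 1.73% in all. The labels put digits in the library names of WT replicates 1 and 2 and KO replicate 1 and a letter in the others, without saying why. With that name style as a covariate 1 gene rose, Gria3.

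**Figure D1:**
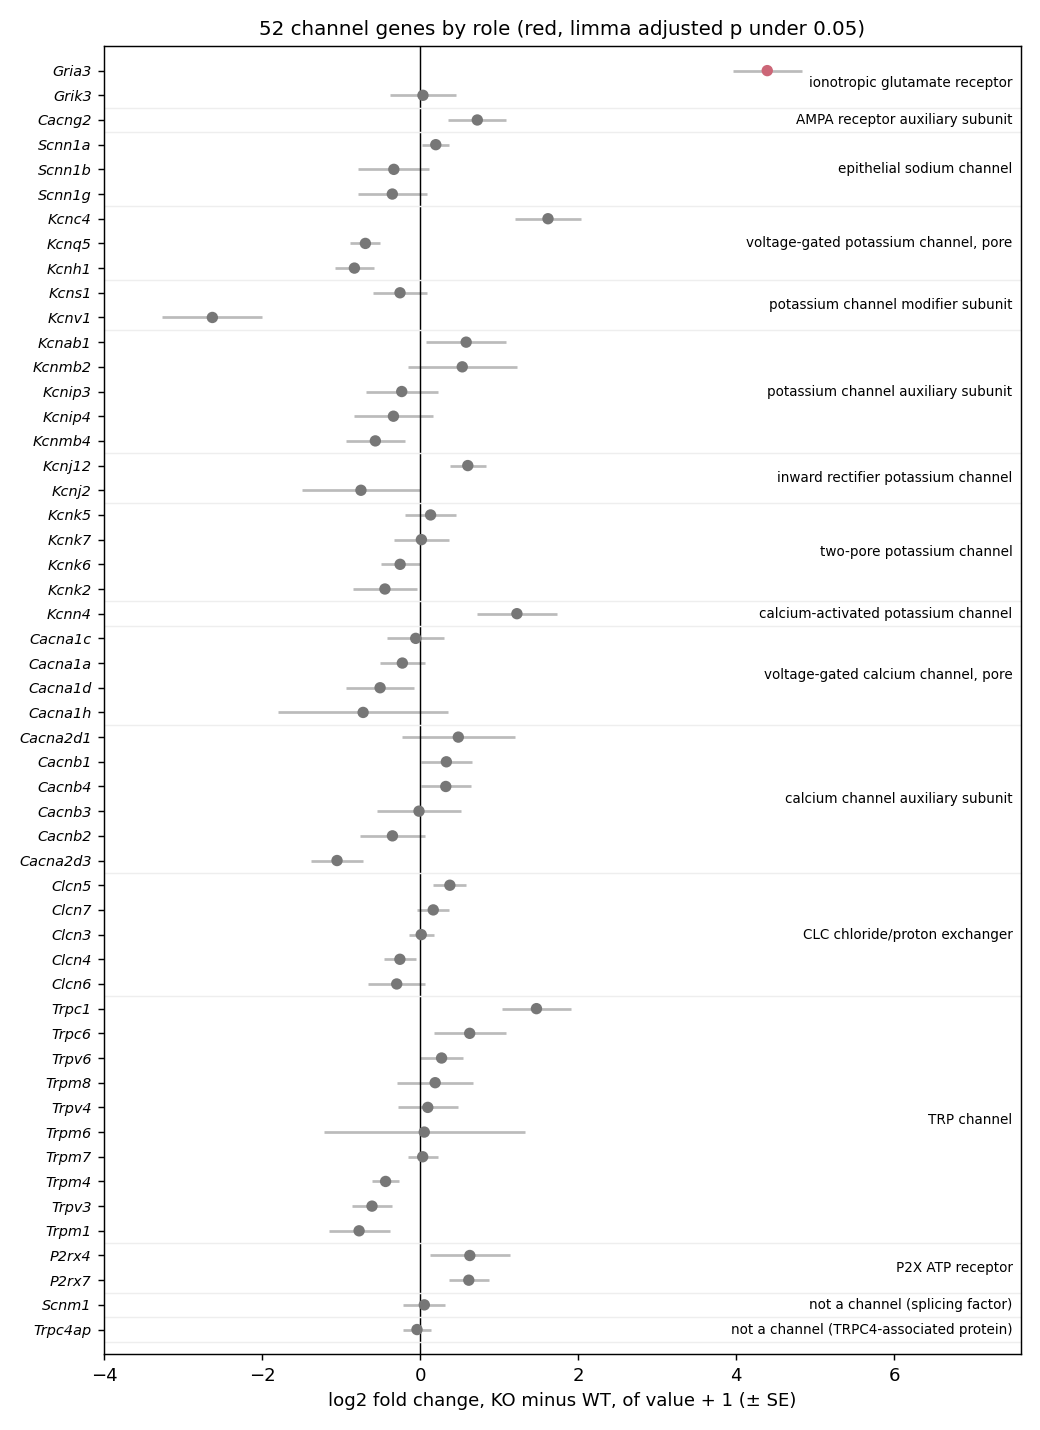
Each point is the log2 fold change of 1 channel gene, 52 of the 54, KO minus WT, on the log2(value + 1) scale with its limma standard error, grouped by role. The red point passed the adjusted threshold, Gria3 at 4.39. Kcnv1 is farthest left at -2.63 and did not pass.

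Gria3 encodes GluA3, a subunit of the AMPA receptor, the channel that carries fast excitatory signals at synapses. It lies on the X chromosome (41400854 to 41678601, plus strand, GRCm38 in GENCODE M21) with no other annotated gene within 2 kb of its 3' end. Its normalised read count was 4.71, 1.75 and 9.14 in the WT libraries and 109, 128 and 103 in the KO libraries. Every KO library was far above every WT library, and the KO libraries lay close together. The mean went from 5.20 ± 3.72 (SD, n = 3) to 113 ± 12.8 (SD, n = 3), 21.8-fold on the linear scale. The log2 fold change was 4.39 with an SE of 0.44 (limma adjusted p = 0.00113), the rank 2 from the top among 10987 genes. Because the level filter required it to be high in 1 group, the fit without a filter is given too (limma adjusted p = 3.6e-05 over 21778 genes). It passed in each of the 6 fits that left out 1 library (limma adjusted p from 5.3e-04 to 0.0114). Those fits kept the genes filtered on all 6 libraries, where Gria3 was included through its KO values alone, so they are a description. Summed nerve and glia markers, mostly Mbp, were 442 to 620 in WT and 421 to 595 in KO, and the neuronal genes Tubb3, Nefl and Prph were at 0 in all 6 libraries. Within the digit-named libraries the difference was 4.80 log2 units and within the letter-named ones 3.51.

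The rest of the glutamate receptor family did not share this level. Gria1 and Gria2 were at or below 1.88 in every library and Gria4 at or below 6.03, so Gria3 was the AMPA receptor gene that passed the filter. Cacng2 encodes stargazin, which despite its name carries AMPA receptors to the membrane. It gave 17.0, 15.7 and 15.7 in WT and 32.5, 37.9 and 16.2 in KO, where KO replicate 3 lay between the WT values (log2 fold change 0.72 with an SE of 0.37, limma adjusted p = 0.434). Grik3, a kainate receptor subunit gene, was 13.0 ± 3.82 in WT and 13.4 ± 4.56 in KO (SD, n = 3; limma adjusted p = 0.985). Grin3a, an NMDA receptor subunit gene, fell short of the filter, with 8.48, 20.1 and 11.8 in WT and 3.25, 3.45 and 3.81 in KO. Its groups did not overlap, but it was not in the fit.

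**Figure D2:**
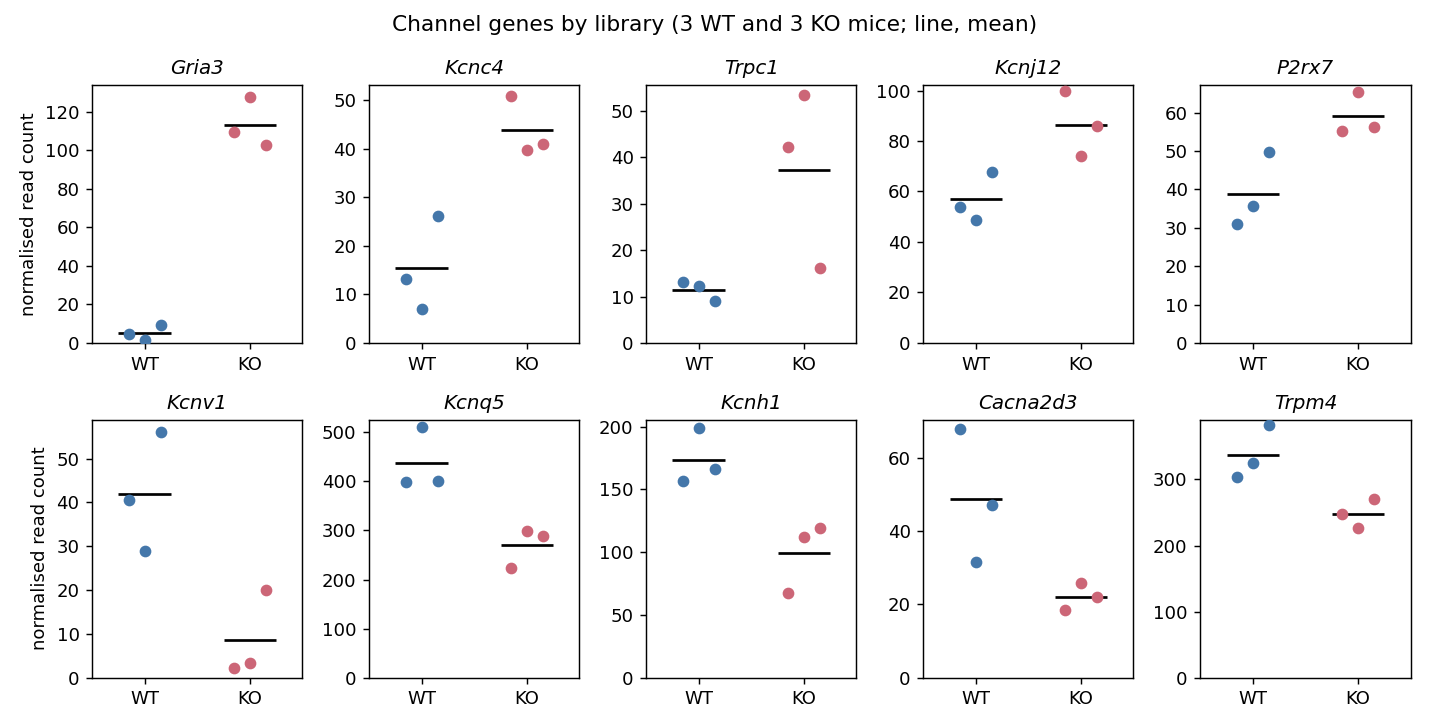
Normalised read counts of 10 channel genes in each library, with points for replicates 1 to 3 from left to right in each group and a line at the group mean. The upper row shows genes above every WT value in all 3 KO libraries, and the lower row genes below every WT value. Gria3 lies between 103 and 128 in KO against at most 9.14 in WT.

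The epithelial sodium channel is made of α, β and γ subunits and takes up sodium across the apical membrane. Scnn1a, its α subunit gene, gave 633, 564 and 656 in WT and 735, 607 and 789 in KO, and KO replicate 2 lay within the WT range. Its means were 618 ± 47.9 and 710.1 ± 93.6 (SD, n = 3; log2 fold change 0.20 with an SE of 0.17, limma adjusted p = 0.688). Scnn1b and Scnn1g were low, between 5.42 and 24.5 in every library, with log2 fold changes of -0.34 and -0.35 that did not pass. Scnm1 had a log2 fold change of 0.05.

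Of the 18 Kcn genes, 0 passed with limma and 7 had an unadjusted p under 0.05, 4 higher and 3 lower (38.9%, against 13.5% of all genes, of which 1.8% passed). Voltage-gated potassium channels repolarise the membrane. Kcnc4 (Kv3.4), one of their pore-forming genes, gave 13.2, 6.98 and 26.1 in WT and 50.9, 39.6 and 41.0 in KO (log2 fold change 1.62 with an SE of 0.42, limma adjusted p = 0.0948, DESeq2 adjusted p = 0.0334). Its highest WT value, in replicate 3, was well under the lowest KO value, and without WT replicate 3 it passed (limma adjusted p = 0.0251).

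Kcnq5 and Kcnh1, also pore-forming, were lower in every KO library. Kcnq5 (Kv7.5), which carries the slow M-type current, was the Kcn gene with the most reads. It gave 399, 511 and 401 in WT and 223, 298 and 288 in KO (log2 fold change -0.70 with an SE of 0.19, limma adjusted p = 0.109). Kcnh1 (Kv10.1, ether-a-go-go) gave 156, 199 and 166 in WT and 67.2, 112 and 119 in KO (-0.83 with an SE of 0.24, limma adjusted p = 0.136). For both, the lowest value was in KO replicate 1, and neither passed in any fit that left out 1 library (limma adjusted p from 0.109 to 0.388 over both genes).

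Kcnv1 encodes Kv8.1, a silent subunit that makes no channel alone and modifies Kv2 channels. Its values were 40.5, 28.8 and 56.2 in WT and 2.17, 3.45 and 20.01 in KO. KO replicates 1 and 2 were at a few reads, while KO replicate 3 lay nearer the WT range without entering it. Its means were 41.8 ± 13.7 and 8.54 ± 9.95 (SD, n = 3), a log2 fold change of -2.63 with an SE of 0.63, the rank 10 from the bottom among 10987 genes. It did not pass (limma adjusted p = 0.0744, edgeR 0.111), but passed with DESeq2 (0.00729), without a filter (limma 0.0353), without KO replicate 3 (limma 0.0140) and with a replicate block (limma 0.0377). The authors' deposited table lists Kcnv1 with a log2 fold change of -2.28 and Gria3 with 4.55. Kcns1, another silent subunit gene, was 29.8 ± 6.99 in WT and 25.1 ± 7.83 in KO (SD, n = 3).

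**Figure D3:**
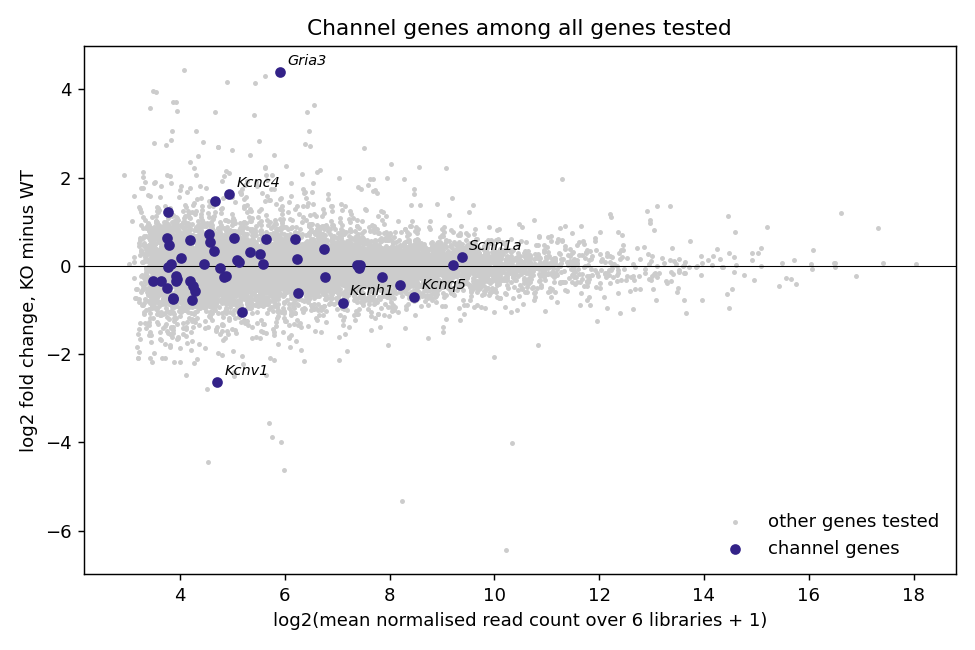
The vertical axis is the log2 fold change, KO minus WT, and the horizontal axis the log2 mean level over 6 libraries, for 52 of the 54 channel genes (dark points) and the other genes tested (grey). Gria3 and Kcnv1 lie at the edges of the cloud at their levels, and most other channel genes lie within it.

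Among the other potassium channel genes, the inward rectifiers hold the resting potential. Kcnj12 (Kir2.2) gave 53.7, 48.9 and 67.9 in WT and 99.7, 74.1 and 85.8 in KO, with no overlap (log2 fold change 0.60 with an SE of 0.23, limma adjusted p = 0.262). Kcnj12 is a muscle gene too, and its highest value was in KO replicate 1, where muscle markers were highest. In KO replicate 2, with the fewest muscle reads, its 74.1 was above each WT value. How much muscle RNA adds to its level was not tested. Kcnj2 (Kir2.1) differed more within groups than between them, from 3.92 to 35.8 in WT and from 2.86 to 15.2 in KO. The 4 two-pore genes, whose channels leak potassium at rest, had log2 fold changes from -0.45 (Kcnk2) to 0.13 (Kcnk5). Kcnk7 had group means of 164 and 166, while its libraries ran from 96.5 to 246. Kcnn4 (KCa3.1), opened by intracellular calcium, gave 5.65, 13.1 and 3.92 in WT and 24.9, 12.9 and 15.2 in KO (1.22 with an SE of 0.50, limma adjusted p = 0.315). WT replicate 2 and KO replicate 2 overlapped. The 5 auxiliary genes Kcnab1, Kcnip3, Kcnip4, Kcnmb2 and Kcnmb4 had log2 fold changes from -0.57 to 0.58, and none passed.

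The 11 Cacn genes were all under a mean level of 50, and 0 passed with limma, with 1 at an unadjusted p under 0.05 (9.09%, against 13.5% of all genes, of which 1.8% passed). That was Cacna2d3, an α2δ subunit that brings calcium channels to the membrane. It gave 67.9, 31.4 and 47.0 in WT and 18.4, 25.9 and 21.9 in KO (log2 fold change -1.05 with an SE of 0.32, limma adjusted p = 0.155). All KO values were below all WT values, though KO replicate 2 came near WT replicate 2. The 4 pore genes had log2 fold changes of -0.06 (Cacna1c), -0.23 (Cacna1a), -0.51 (Cacna1d) and -0.72 (Cacna1h), none of which passed. Cacna1h, a T-type channel gene, ran from 1.31 to 36.8 in WT and from 1.91 to 26.7 in KO. It was highest in WT replicate 1 and KO replicate 2, then WT replicate 2, across both genotypes. Cacna2d1 and Cacnb1, subunits of the muscle calcium channel, were each highest in KO replicate 1, at 31.4 and 34.7, against at most 17.0 and 26.7 elsewhere. The part of muscle RNA in these values was not tested. Cacnb4, the Cacn gene with the most reads, was 34.5 ± 8.51 in WT and 44.5 ± 16.4 in KO (SD, n = 3; limma adjusted p = 0.728).

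The 5 Clcn genes encode exchangers that move chloride against protons in endosomes and lysosomes. None passed, none had an unadjusted p under 0.05, and their log2 fold changes ran from -0.30 (Clcn6) to 0.37 (Clcn5). Clcn3 gave 611, 616 and 543 in WT and 614, 574 and 594 in KO, and the groups overlapped. Its log2 fold change was 0.01 with an SE of 0.16 (limma adjusted p = 0.986). Clcn4 was 251 ± 54.6 in WT and 207 ± 22.5 in KO (SD, n = 3).

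Of the 11 Trp genes 0 passed with limma, and 3 had an unadjusted p under 0.05 (27.3%, against 13.5% of all genes, of which 1.8% passed). Trpc1, a cation channel subunit linked to store-operated calcium entry, gave 13.2, 12.2 and 9.14 in WT and 42.3, 53.4 and 16.2 in KO. KO replicate 3 was only slightly above WT, while the other KO libraries were far above it. Its log2 fold change was 1.47 with an SE of 0.44 (limma adjusted p = 0.146), and it passed with DESeq2 (adjusted p = 0.0402). Trpm4, a sodium-passing channel opened by calcium, was lower in every KO library, with 304, 325 and 383 in WT and 247, 227 and 270 in KO. Its log2 fold change was -0.44 with an SE of 0.17 (limma adjusted p = 0.292). Trpv3, the warmth-sensing channel of keratinocytes, gave 87.6, 104 and 79.7 in WT and 46.6, 53.4 and 80.0 in KO. KO replicate 3 lay within the WT range, and the log2 fold change of -0.61 with an SE of 0.25 did not pass (limma adjusted p = 0.311).

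The other Trp genes differed less between groups or more within them. Trpm1, a gene of pigment cells, gave 21.7, 20.1 and 24.8 in WT and 13.0, 7.76 and 19.1 in KO, with no overlap (log2 fold change -0.78, limma adjusted p = 0.425). Summed pigment cell markers were 41.0 to 102 in WT and 76.2 to 113 in KO, with Tyrp1 at 0 in all 6 libraries and Mlana called higher. Mlana was at most 1.31 in WT and 15.5 to 26.0 in KO, so it passed the level filter through the KO libraries alone. The part of pigment cells in the level of Trpm1 was not tested. Trpm7, a magnesium-passing channel with a kinase domain, was 172 ± 30.6 in WT and 173 ± 4.53 in KO (SD, n = 3). Trpv4 and Trpv6, calcium-passing channels of epithelia, had log2 fold changes of 0.09 and 0.27. Trpc4ap was 173 ± 10.2 in WT and 168 ± 19.3 in KO (SD, n = 3; log2 fold change -0.04). Trpm6, a magnesium channel gene, gave 62.2, 19.2 and 0 in WT and 4.33, 33.6 and 6.67 in KO. Its high libraries were those of Cacna1h, and its mean was lower in KO while its log2 fold change was 0.05 with an SE of 1.27.

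**Figure D4:**
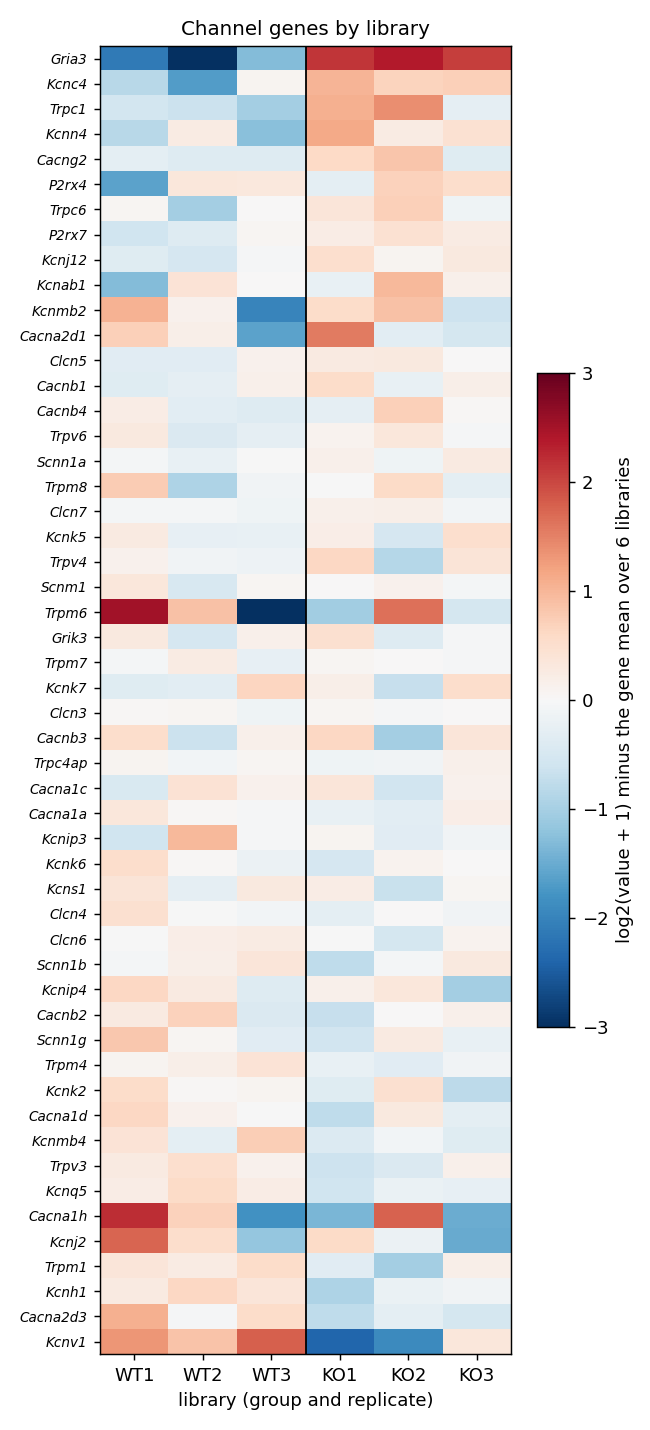
Each cell is log2(value + 1) of 1 of 52 channel genes in 1 library minus the gene's mean over the 6 libraries, with genes ordered by fold change, highest at the top. Colours end at 3 in either direction. Gria3 divides at the line between WT and KO, while Trpm6 and Cacna1h are above their means in WT1, WT2 and KO2.

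P2X receptors are channels opened by ATP outside the cell. P2rx7 gave 31.1, 35.8 and 49.6 in WT and 55.3, 65.5 and 56.2 in KO, with no overlap (log2 fold change 0.61 with an SE of 0.25, limma adjusted p = 0.315). P2rx4, its chromosomal neighbour, was 26.5 ± 15.6 in WT and 36.5 ± 12.1 in KO (SD, n = 3), and WT replicate 1 stood low at 8.48.

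The level filter left out genes just below it. The genes just inside it, by the third highest library, were Scnn1b and Cacna2d1, both at 11.3, and Cacna1h at 12.2. The first genes outside were Kcnip2 and Kcnma1, both at 9.75, and Cacna1g at 9.53.

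Channel genes with other names came from a list of 145 other genes, of which 54 were tested. With limma 0 rose and 1 fell, beside the 1.22% and 0.583% of all genes, and the median log2 fold change was 0.01. The gene that fell was Ano2, a chloride channel opened by calcium. It gave 240, 218 and 184 in WT and 95.3, 67.2 and 83.9 in KO (log2 fold change -1.38 with an SE of 0.21, limma adjusted p = 0.00838), and all KO values were well under all WT values. Leaving out WT replicate 2 ended the call (limma adjusted p = 0.0521). Ano1, of the same family, was higher in every KO library, with 66.6 ± 11.9 in WT and 127 ± 15.4 in KO (SD, n = 3; limma adjusted p = 0.0609, DESeq2 adjusted p = 0.0345). Orai2, a pore of store-operated calcium entry, was 53.05 ± 11.5 in WT and 106 ± 7.63 in KO (SD, n = 3; limma adjusted p = 0.0524, DESeq2 adjusted p = 0.0331).

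Of a list of 62 partner genes (auxiliary proteins, scaffolds and regulators of channels), 36 were tested, and with limma 0 rose and 1 fell, beside 1.22% and 0.583% of all genes. Their median log2 fold change was 0.04. Neto2, an auxiliary subunit of kainate receptors, fell from 88.6, 77.7 and 70.5 in WT to 30.3, 31.9 and 34.3 in KO (log2 fold change -1.26 with an SE of 0.22, limma adjusted p = 0.0175). The groups were far apart, yet leaving out WT replicate 1 or 2, or KO replicate 1 or 3, ended the call (limma adjusted p from 0.0650 to 0.0884). Ank3, which anchors sodium channels to the cytoskeleton, was 1009 ± 81.1 in WT and 1526 ± 128 in KO (SD, n = 3; limma adjusted p = 0.113). Dlg2, a scaffold of glutamate receptors and potassium channels, was 463 ± 24.7 in WT and 293 ± 62.7 in KO (SD, n = 3; limma adjusted p = 0.118).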

How the data were processed

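Libraries were made with a QuantSeq 3' kit, per the labels' protocols. The authors deposited normalised read counts, a linear signal of whole reads divided by 1 size factor per library (100% of values up to 2000 reads whole to within 0.01). Per the submitters' processing notes, the tools were FastQC, STAR, featureCounts and DESeq2. The genome build, gene annotation and strand setting used are not stated in these sources. The authors' deposited table of 341 called genes gives log2 fold changes, a test score and, per the file headers, p-values with adjusted p-values and q-values. Genes reaching 10 or more in 3 or more libraries were fitted as log2(value + 1) with limma 3.58.1 (R 4.3.3, intensity trend, two-sided, Benjamini-Hochberg adjustment at 0.05), which was tested on simulated data. Such fold changes understate changes of low genes. Recovered reads were tested with edgeR 4.0.16 and DESeq2 1.42.0. A value of 0 allows up to 3 reads, which is 2.59 to 3.92 as a normalised value and covers counting error alone. Values are not divided by gene length. With 3 mice against 3, an exact permutation test cannot go below 0.1, so none was used. Groups and replicate numbers came from the titles. Columns were matched by library name, and 0 value columns were left unmatched.

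Named genes were those called by any tool, the 12 with the smallest p, the one with the highest mean of each name group, and those passing the filter through 1 group. Others were named after their values were seen, and 2 of the 54 genes are counted but not reported here. Members and lists were chosen with earlier results of these data known. Alternatives are in the closing section.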

Additional observations from a re-analysis of the deposited data

How the results depend on the processing

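Gria3 passed in every fit that was run. In all but the fit without a filter, it was included through its KO values alone, so these results are a description. The number of the 54 genes that rose was 2 in the reported fit, 4 with DESeq2, 1 with the name style as a covariate, and 1 to 3 when 1 library was left out (1 without KO replicate 1 or KO replicate 3, 3 without WT replicate 3). The number that fell was 0, and 1 with no filter, with DESeq2 or with a replicate block, and 0 to 1 when 1 library was left out. Deviations of same-numbered libraries from their group means correlated at -0.25, 0.03 and 0.28, and those of differently numbered ones at -0.40 to 0.41. With 3 libraries in a group such deviations are tied to each other, so these values cannot exclude a pairing. The block changed the call of Kcnv1 and of no other named gene. With a mean of 50 or more 16 of the 54 genes remained in the fit.

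Of the other channel genes 0 rose, 1 with quantile normalization (Orai2) and 2 with DESeq2, and 1 fell, 0 to 1 when 1 library was left out. Of the partner genes 1 fell, 0 with the name style as a covariate and 0 to 1 when 1 library was left out. Signs near 0 reversed: the log2 fold change of Clcn3 was -0.025 with equal totals and -0.047 to 0.044 when 1 library was left out, that of Grik3 -0.21 to 0.24 and that of Trpc4ap -0.13 to 0.0096. The cause was not tested. Low read numbers limit the precision of the 38 genes with a mean under 50.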
